A study of Mus musculus with 12 samples.

Results

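The IGF system was examined as 10 genes of the 51490 in the expression table, namely the ligands *Igf1* and *Igf2*, the receptors *Igf1r* and *Igf2r*, and the binding protein genes *Igfbp2* to *Igfbp7*. The family was chosen because *Igfbp5* was already known to be strongly lower upon *Srsf3* knockdown in these data, so that the knockdown values of *Igfbp5* are given as a description without a test. All 10 genes passed the low-count filter and were among the 15037 genes tested. RNA-seq covered 12 samples of iMEPM cells, an immortalized line of mouse embryonic palatal mesenchyme derived from a male *Cdkn2a*-/- embryo. The cells stably carried a lentiviral scramble shRNA or an shRNA against *Srsf3* (shSrsf3), which encodes a serine/arginine-rich splicing factor, and were left without ligand (-PDGF-AA) or received PDGF-AA at 10 ng/mL for 1 h (+PDGF-AA), with 3 biological replicates in each of the 4 groups. The methods describe serum starvation before ligand for other experiments of the study, and their RNA-seq section does not state it for these samples. There was 1 line per shRNA, a puromycin-selected pool sorted for high GFP, so that knockdown and other differences between the 2 lines cannot be told apart, and all samples lack *Cdkn2a*, a cell cycle inhibitor locus.

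IGF-I and IGF-II are secreted growth factors that signal through the receptor tyrosine kinase encoded by *Igf1r*, whereas the receptor encoded by *Igf2r* takes up IGF-II for degradation in lysosomes. The IGFBP proteins bind both ligands outside the cell, where they store them, carry them or withhold them from the receptor, and proteases release the ligands again. *Igf2* and *Igf2r* are imprinted in the mouse, *Igf2* being expressed from the paternal and *Igf2r* from the maternal allele.

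Samples had between 30958966 and 76123359 counts in total. *Srsf3*, the targeted gene, measured 199 to 231 CPM (counts scaled to 1 shared sequencing depth per library) in the 6 scramble samples and 161 to 169.5 CPM in the 6 shSrsf3 samples, with log2 fold changes of -0.34 without and -0.43 with ligand. These values describe RNA, and by western blot the paper reports a larger loss of the protein in the shSrsf3 line. Reads of *Srsf3* may not be fully separated from those of other genes. Of its 31-base stretches, 12.4% are shared, mainly with *Srsf3-ps*. Of 12 palate mesenchyme markers, 9 or 10 had a mean of at least 1 CPM in each group, including *Pdgfra*, *Prrx1* and *Twist1*, whereas the palate genes *Meox2* and *Tbx22* were at or near 0 in all groups. Levels of these markers differed between the lines in both directions. Without ligand, *Shox2* had means of 3.88 CPM in scramble and 13.02 CPM in shSrsf3 cells. The means of *Pdgfra*, *Osr2* and *Msx1* were 73.9, 5.23 and 1.70 CPM in scramble and 51.3, 2.95 and 0.897 CPM in shSrsf3 cells. The epithelial markers summed to 2.09 to 3.30 CPM in scramble samples and 0.537 to 0.998 CPM in shSrsf3 samples, a difference carried by *Cdh1*, and the leukocyte and skeletal muscle markers summed to less than 2 CPM in every sample. The 4 endothelial markers summed to 30.5 to 34.6 CPM in scramble and 19.1 to 22.6 CPM in shSrsf3 samples, mostly from *Tek*, while *Pecam1* stayed below 1 CPM. *Cdh5* and *Kdr* of the same list went the other way, with means of 0.274 and 0.251 CPM in scramble and 1.37 and 0.623 CPM in shSrsf3 cells before ligand was added, and the 4 neural markers, at 28.2 to 31.5 and 19.97 to 24.7 CPM, rested on *Tubb3* with *Sox10* and *Elavl4* at 0. The part of these markers in the IGF system results was not tested, and in bulk samples fewer cells of a type and less RNA per cell cannot be told apart. Replicates 1 and 2 of scramble -PDGF-AA, together with scramble +PDGF-AA replicate 2, were the 3 libraries of lowest mapping rate per the study's methods, and values without them are given beside the members whose values moved most. Scramble -PDGF-AA then keeps replicate 3 only, so that each such value that involves this group rests on 1 library there.

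*Igfbp2* and *Igfbp5*, the binding protein genes with the lowest levels in shSrsf3 relative to scramble cells, are neighbors on chromosome 1 of GRCm39. *Igfbp2* (ENSMUSG00000039323.20) runs from 72863606 to 72891634 on the plus strand and *Igfbp5* (ENSMUSG00000026185.10) from 72897091 to 72914043 on the minus strand, so that the ends of the genes face each other across 5.46 kb. *Igf2* (ENSMUSG00000048583.19), the third gene that was at least 2-fold lower, lies on chromosome 7 from 142204503 to 142220694 on the minus strand. Their promoter stretches are shown because these 3 genes were the members called lower. The RefSeq promoter table (GRCm38.p6) had 14 windows of 250 bases before a start for the 10 members, each with an exact match in GRCm39. Each stretch below is written 5′ to 3′, holds up to 200 bases and ends where annotated exons begin, and capitals mark GGGCGG, the core of a GC box, on either strand.

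*Igfbp2*, chr1:72863406-72863605, plus strand: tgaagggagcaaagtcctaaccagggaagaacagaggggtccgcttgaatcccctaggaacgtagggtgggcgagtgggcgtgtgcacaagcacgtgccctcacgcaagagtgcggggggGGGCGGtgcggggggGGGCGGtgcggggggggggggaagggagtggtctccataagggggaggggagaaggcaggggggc

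*Igfbp5*, chr1:72914044-72914243, minus strand: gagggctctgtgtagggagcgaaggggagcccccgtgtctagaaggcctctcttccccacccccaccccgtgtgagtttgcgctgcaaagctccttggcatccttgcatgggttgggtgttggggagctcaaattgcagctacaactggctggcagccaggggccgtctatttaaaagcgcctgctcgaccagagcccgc

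*Igf2*, the window of 4 with the most GGGCGG matches, chr7:142211234-142211433, minus strand, within the gene upstream of an internal start: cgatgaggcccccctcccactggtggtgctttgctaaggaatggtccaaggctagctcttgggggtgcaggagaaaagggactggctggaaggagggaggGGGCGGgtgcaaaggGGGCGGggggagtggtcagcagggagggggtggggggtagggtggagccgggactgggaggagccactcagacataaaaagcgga

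GGGCGG occurred at 3 positions in the full *Igfbp2* window, 113, 98 and 37 bases before the start (the last reaches the first annotated exon and is not printed), at 100 and 85 bases in this *Igf2* window, and at none in the *Igfbp5* window. On either strand, it was present in 6 of the 14 windows of the members and in 32.7% of all 32851 windows. TATAAA, the TATA box sequence, was found in 2 windows of the members, 28 bases before the start of *Igfbp4* and 148 bases before that of *Igfbp6*, against 12.4% of all windows. CANNTG, the E box sequence, was found in 9 windows, 142 bases before this start of *Igfbp2* and 77 bases before that of *Igfbp5*, against 66.2% of all windows. The GC content was 67.2% for this *Igfbp2* window, 66.0% for the *Igf2* window and 58.8% for *Igfbp5*, with a median of 52.4% over all windows. The *Igf2* windows not printed had 50.8%, 47.6% and 68.8% GC with 0, 0 and 1 GGGCGG matches. The second *Igfbp2* window had 56.4% GC and 0 matches. *Igfbp7*, which was higher in shSrsf3 cells, had 4 matches and 74.0% GC, and *Igf2r*, which was not called, had 3 and 69.2%. Windows of this kind were thus not particular to the members called lower. These matches describe the letters of the windows only.

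To assess how the IGF system differed between scramble and shSrsf3 cells, the groups were compared within each ligand condition. In the absence of ligand, 3 of the 10 members (*Igfbp2*, *Igfbp5* and *Igf2*) were called lower in shSrsf3 cells, that is, with a fold change of 2 or more and an adjusted p up to 0.05, and 0 were called higher. Among all genes tested, 2.76% were lower and 2.99% were higher by this rule. Without *Igfbp5*, on which the family was selected, 2 of the other 9 members were called. When the adjusted p alone was considered, 7 members were lower and 2 (*Igfbp6* and *Igfbp7*) were higher, against 23.7% and 22.2% of all genes. The median log2 fold change was -0.49 over the 10 members and -0.02 over all genes tested. Without *Igfbp5*, 6 of 9 were lower by adjusted p, and the median was -0.46. In the presence of ligand, the same 3 genes were called lower and 0 higher, against 2.57% and 2.85% of all genes, and the same 7 members were lower and the same 2 higher by adjusted p alone, against 20.7% and 20.3% of all genes. There, the median log2 fold change was -0.50 over the members and -0.01 over all genes. Without *Igfbp5*, 2 of the other 9 were called, 6 were lower by adjusted p, and the median was -0.47.

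**Figure D1:**
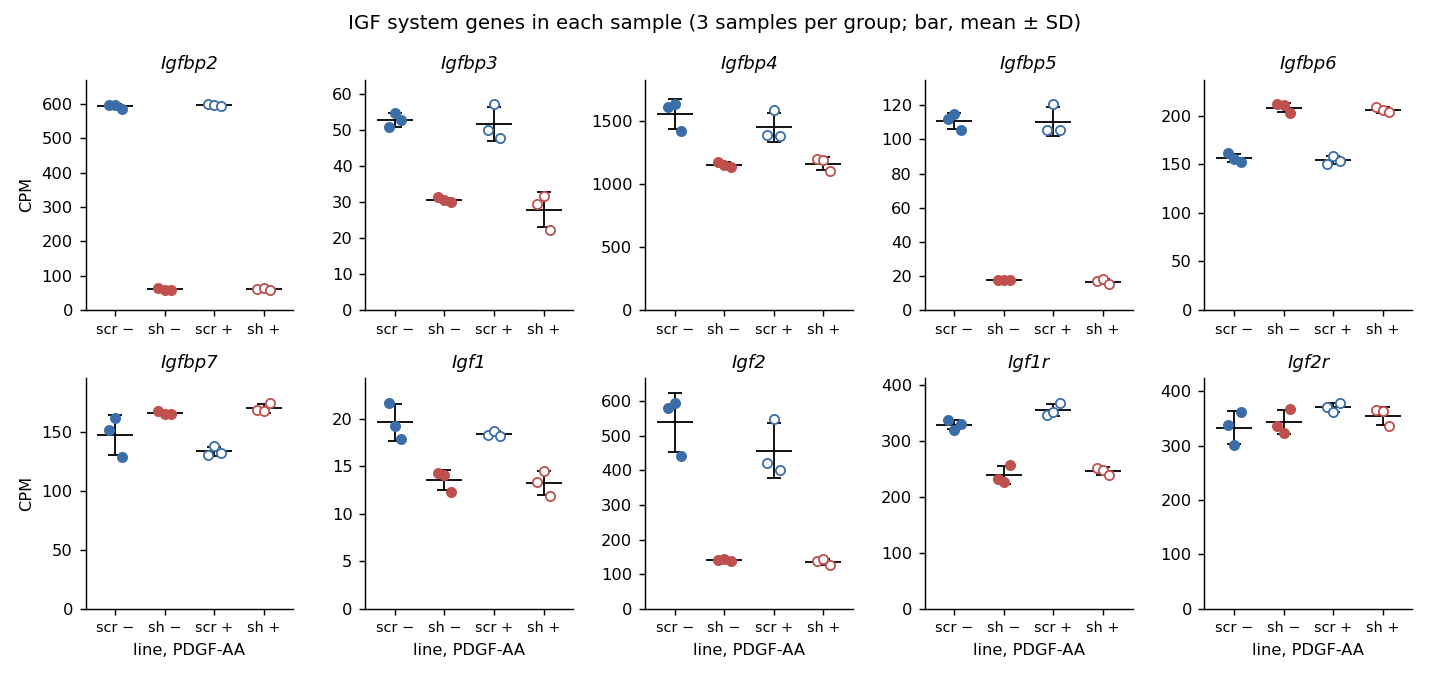
CPM (linear y axis from 0, scaled per gene) of the 10 members in each of the 12 samples, with blue for scramble (scr), red for shSrsf3 (sh), filled points without and open points with PDGF-AA, and black bars for the mean ± SD (n = 3). *Igfbp2* lies between 585 and 599 CPM in all scramble samples and between 58.3 and 63.6 CPM in all shSrsf3 samples, while the samples of *Igf2r* overlap.

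*Igfbp2* encodes a binding protein that is abundant in embryonic tissues and prefers IGF-II. It measured 597, 598 and 585 CPM in the scramble -PDGF-AA samples and 63.2, 58.3 and 58.4 CPM in the shSrsf3 -PDGF-AA samples. Upon ligand treatment it measured 599, 596 and 593 CPM in scramble and 59.9, 63.6 and 59.7 CPM in shSrsf3 samples. The scramble and shSrsf3 samples were thus far apart in both ligand conditions, with a spread of a few percent within each group. *Igfbp2* was 9.89-fold lower in shSrsf3 cells without ligand (log2 fold change -3.31, SE 0.0416, adjusted p = 4.06e-15 by edgeR's quasi-likelihood test) and 9.76-fold lower with ligand (-3.29, SE 0.0418, adjusted p = 4.68e-15 by the same test). Of the 15037 genes tested, it had the smallest p in both comparisons and the 27th and 26th most negative log2 fold change. Without the 3 libraries of lowest mapping rate, the log2 fold change was -3.29 in both conditions.

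*Igfbp5*, a binding protein gene known from bone and connective tissue whose product also binds extracellular matrix, was the gene on which the family was selected. Its CPM values were 112, 115 and 106 in scramble and 17.6, 17.8 and 17.7 in shSrsf3 samples without ligand. With ligand they were 105, 121 and 106 in scramble and 16.97, 17.96 and 15.1 in shSrsf3 samples. As a description, *Igfbp5* was 6.25-fold lower without ligand (log2 fold change -2.64, SE 0.0665) and 6.61-fold lower with ligand (-2.73, SE 0.0683). Its mean counts were 110.8 ± 4.59 and 17.7 ± 0.107 CPM without ligand (SD, n = 3).

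The other 4 binding protein genes moved by less than 2-fold. *Igfbp4*, whose product inhibits IGF action until it is cleaved, measured 1611, 1632 and 1419 CPM in scramble -PDGF-AA samples and 1172, 1152 and 1139 CPM in shSrsf3 -PDGF-AA samples. It measured 1386, 1584 and 1383 CPM in scramble and 1197, 1188 and 1102 CPM in shSrsf3 samples with ligand. The groups did not overlap, and *Igfbp4* was lower in shSrsf3 cells by log2 fold changes of -0.43 (SE 0.0595, adjusted p = 5.93e-05 by edgeR) and -0.32 (SE 0.0595, adjusted p = 7.05e-04 by edgeR) without and with ligand. Without the 3 libraries of lowest mapping rate, which held the 3 highest *Igfbp4* values, these were -0.30 and -0.26.

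*Igfbp3* encodes the main IGF carrier of the blood. Without ligand it measured 50.7, 54.6 and 52.7 CPM in scramble and 31.3, 30.5 and 30.1 CPM in shSrsf3 samples. With ligand it measured 49.98, 57.0 and 47.8 CPM in scramble and 29.4, 31.6 and 22.3 CPM in shSrsf3 samples, the last sample lying below the others. *Igfbp3* was lower in shSrsf3 cells by 1.72-fold (log2 fold change -0.78, SE 0.0945, adjusted p = 1.70e-05 by edgeR) and 1.85-fold (-0.89, SE 0.0968, adjusted p = 6.82e-06 by edgeR).

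*Igfbp6* and *Igfbp7* were the members with higher levels in shSrsf3 cells. *Igfbp6*, whose product strongly prefers IGF-II, measured 161, 155 and 153 CPM in scramble and 212, 211 and 203 CPM in shSrsf3 samples without ligand. With ligand the values were 151, 159 and 154 CPM in scramble and 209, 206 and 203 CPM in shSrsf3 samples. The groups were apart by more than their spread, with a log2 fold change of 0.42 in both conditions (SE 0.0354 and 0.0355, adjusted p = 6.16e-07 and 6.82e-07 by edgeR). *Igfbp7* encodes a low-affinity relative of the IGFBPs that is found in the matrix. It measured 151, 162 and 128 CPM in scramble and 168, 165 and 165 CPM in shSrsf3 samples without ligand, and 131, 138 and 132 CPM in scramble and 168, 168 and 174 CPM in shSrsf3 samples with ligand. Its log2 fold change was 0.35 with ligand (SE 0.0634, adjusted p = 6.00e-04 by edgeR) and 0.18 without (SE 0.0632, adjusted p = 0.0359 by edgeR). The latter call was lost when any of scramble -PDGF-AA replicate 3 and shSrsf3 -PDGF-AA replicates 1, 2 and 3 was left out (adjusted p = 0.0504, 0.0926, 0.0730 and 0.0549, respectively, by edgeR, with a log2 fold change of 0.10 without the first of these) or when the 2 groups were fitted alone (adjusted p = 0.0645). Without the 3 libraries of lowest mapping rate, the log2 fold change in the absence of ligand was 0.37. There, replicate 3, with the lowest *Igfbp7* value of its group, was the only scramble -PDGF-AA sample left.

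**Figure D2:**
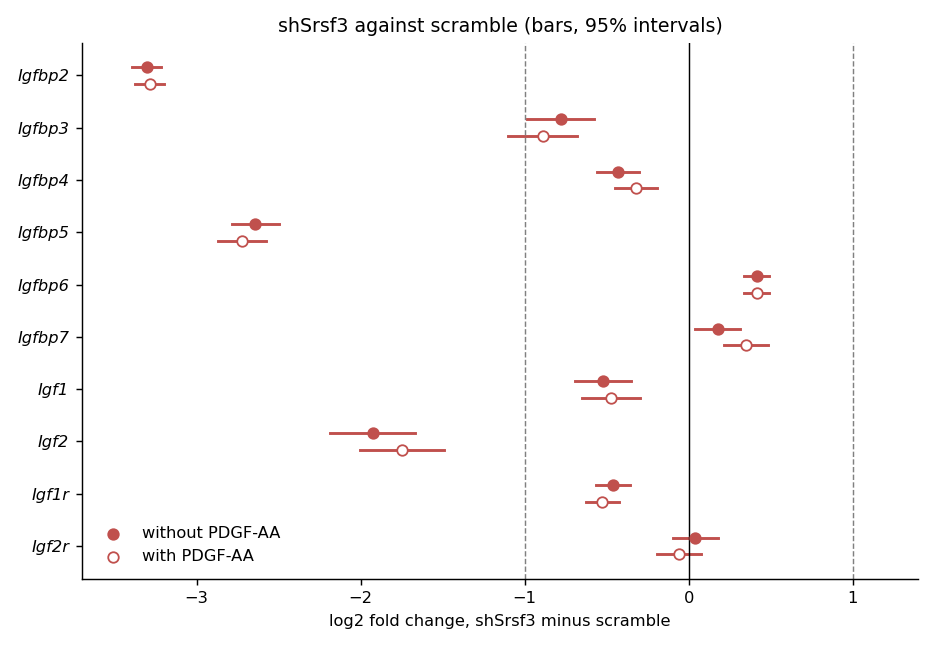
Log2 fold change (x axis, shSrsf3 minus scramble) of each member without PDGF-AA (filled) and with PDGF-AA (open), with 95% intervals as bars and dashed lines at a 2-fold change. *Igfbp2*, *Igfbp5* and *Igf2* lie beyond the lower dashed line in both ligand conditions, and *Igfbp5* is shown as a description because the family was selected on it.

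*Igf2*, the ligand gene with the higher level in these cells, measured 581, 595 and 440.4 CPM in scramble and 142, 144 and 139 CPM in shSrsf3 samples without ligand. With ligand it measured 420.5, 549 and 402 CPM in scramble and 137, 144 and 127 CPM in shSrsf3 samples. The scramble samples were spread over a wider range than the shSrsf3 samples, but the lowest scramble sample was above the highest shSrsf3 sample. *Igf2* was 3.80-fold lower without ligand (log2 fold change -1.93, SE 0.120, adjusted p = 2.99e-08 by edgeR) and 3.36-fold lower with ligand (-1.75, SE 0.119, adjusted p = 7.91e-08 by edgeR). The 3 highest *Igf2* values were those of the 3 libraries of lowest mapping rate, and without them the log2 fold changes were -1.64 and -1.60. Of the 31-base sequences in *Igf2* transcripts, 57.2% also occur in *Gm49394*, an annotated gene that overlaps *Igf2* on the same strand and had at most 6.03 counts in any sample, so that reads of both cannot be fully separated. For the other members this share was at most 6.40%.

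*Igf1* was the lowest member in scramble cells on the scale of CPM per kb of transcript, at 2.77 ± 0.269 (SD, n = 3) without ligand, against 145 ± 23.1 for *Igf2*. It measured 21.7, 19.3 and 17.9 CPM in scramble and 14.3, 14.1 and 12.3 CPM in shSrsf3 samples without ligand. With ligand it measured 18.4, 18.7 and 18.2 CPM in scramble and 13.3, 14.5 and 11.9 CPM in shSrsf3 samples. The groups did not overlap, and *Igf1* was lower in shSrsf3 cells by log2 fold changes of -0.52 (SE 0.0795, adjusted p = 1.33e-04 by edgeR) and -0.47 (SE 0.0822, adjusted p = 4.05e-04 by edgeR). Without the 3 libraries of lowest mapping rate, these were -0.39 and -0.47.

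Of the 2 receptor genes, *Igf1r* was lower in shSrsf3 cells and *Igf2r* was not called. *Igf1r* measured 336, 319.8 and 330.3 CPM in scramble and 232, 226 and 257 CPM in shSrsf3 samples without ligand. It measured 346, 352 and 367 CPM in scramble and 251, 248 and 239 CPM in shSrsf3 samples with ligand. *Igf1r* was lower in shSrsf3 cells, with log2 fold changes of -0.46 (SE 0.0469, adjusted p = 3.39e-06 by edgeR) and -0.53 (SE 0.0470, adjusted p = 1.02e-06 by edgeR). *Igf2r* measured 338, 301 and 362 CPM in scramble and 337, 324 and 367 CPM in shSrsf3 samples without ligand, and 372, 361 and 378 CPM in scramble and 365, 365 and 336 CPM in shSrsf3 samples with ligand. The *Igf2r* groups overlapped in both conditions, and no difference was called (log2 fold change 0.04, 95% interval -0.09 to 0.18, adjusted p = 0.628 by edgeR without ligand and -0.06, 95% interval -0.20 to 0.07, adjusted p = 0.479 by edgeR with ligand). Without the 3 libraries of lowest mapping rate, both values were -0.08, so that the sign without ligand turned, with 1 scramble -PDGF-AA sample left.

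To compare the members with one another, CPM values were divided by the annotated length of the principal transcript. Without ligand, *Igfbp2* was the highest member in scramble cells at 449 ± 5.43 CPM per kb (SD, n = 3), followed by *Igfbp4* at 405 ± 30.5, *Igf2* at 145 ± 23.1 and *Igfbp6* at 128 ± 3.61. The order of *Igfbp2* and *Igfbp4* depends on the length used. *Igfbp2* has 1320 bases in the principal and 1498 in the longest annotated transcript, and *Igfbp4* has 3837 in both. With the longest transcript, the *Igfbp2* mean in this group lies below that of *Igfbp4*. The samples of *Igf2* and *Igfbp6* overlapped, and so did those of *Igfbp7* and *Igf1r* (27.6 ± 3.21 and 26.4 ± 0.675) and of *Igfbp3* and *Igfbp5* (19.5 ± 0.719 and 18.5 ± 0.763). *Igf2r* lay between these at 37.2 ± 3.42. In shSrsf3 cells without ligand, *Igfbp4* was the highest at 301 ± 4.37 CPM per kb, followed by *Igfbp6* at 171 ± 3.95 and *Igfbp2* at 45.4 ± 2.11. Next came *Igf2r* and *Igf2*, whose samples overlapped at 38.3 ± 2.48 and 38.2 ± 0.607, while *Igfbp5* at 2.95 ± 0.0177 and *Igf1* at 1.92 ± 0.152 were the lowest. The order with ligand was the same in shSrsf3 cells, and in scramble cells it differed in the places of the pairs *Igf2* and *Igfbp6* and *Igfbp7* and *Igf1r*.

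The summed level of the 6 binding protein genes was 1048 ± 42.2 CPM per kb in scramble and 563 ± 10.2 in shSrsf3 samples without ligand (SD, n = 3), and 1019 ± 37.3 and 563 ± 17.7 with ligand. The sums of scramble and shSrsf3 samples did not overlap, the lowest scramble sum being 996 and the highest shSrsf3 sum 574. *Igfbp2* made up 42.9% ± 1.24 of this sum in scramble and 8.07% ± 0.257 in shSrsf3 cells without ligand, and 44.3% ± 1.58 and 8.22% ± 0.276 with ligand. *Igfbp4* accounted for 38.6% ± 1.39 in scramble and 53.5% ± 0.216 in shSrsf3 cells without ligand, and *Igfbp6* for 12.2% ± 0.368 and 30.4% ± 0.314. *Igfbp5* made up 1.76% ± 0.0156 and 0.525% ± 0.0107, and *Igfbp7* 2.62% ± 0.209 and 5.53% ± 0.0605. The share of *Igfbp3* was 1.86% ± 0.0999 in scramble and 2.01% ± 0.00504 in shSrsf3 cells. These shares describe RNA levels and rest on annotated transcript lengths.

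**Figure D3:**
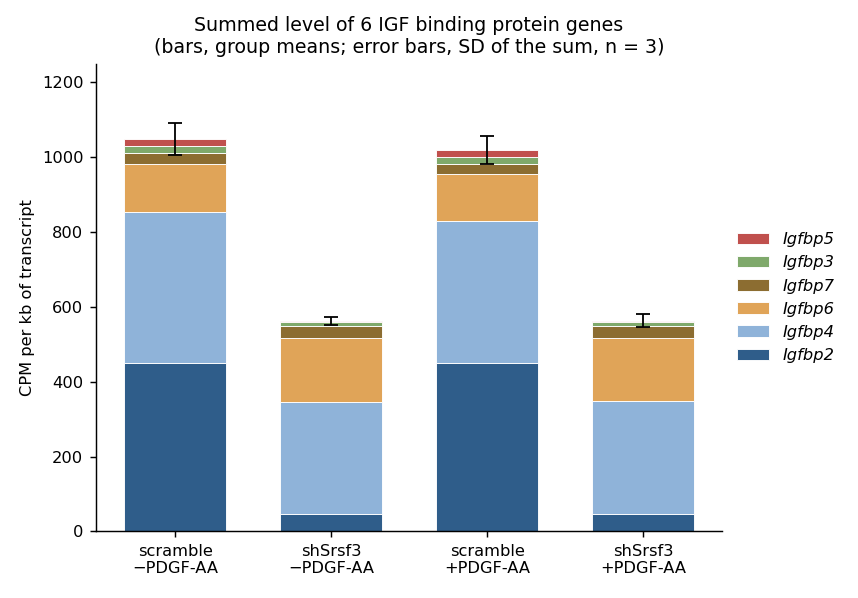
Summed level (y axis, CPM per kb of transcript, from 0) of the 6 binding protein genes in the 4 groups, stacked by gene from group means, with error bars for the SD of the sum (n = 3). The sum is 1048 in scramble and 563 in shSrsf3 cells without PDGF-AA, and the *Igfbp2* segment is the one that shrinks most.

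To determine whether 1 h of ligand altered the IGF system, -PDGF-AA and +PDGF-AA samples were compared within each line. In scramble cells 0 of the 10 members were called, against 0.200% of all genes with and 4.04% without the fold change minimum, and 3 members (*Igf1r*, *Igf2r* and *Igfbp7*) had an unadjusted p under 0.05, as did 2643 of all 15037 genes. In shSrsf3 cells 0 members were called, against 0.0399% and 0.565% of all genes, and 0 had an unadjusted p under 0.05, against 1420 of all genes. With DESeq2, 0 members passed the 2-fold rule in either line. The log2 fold changes of *Igfbp2* were 0.01 in scramble and 0.03 in shSrsf3 cells (95% intervals -0.08 to 0.09 and -0.06 to 0.11), and those of *Igfbp5*, in which the choice of the family played no part, were -0.0047 and -0.09 (95% intervals -0.14 to 0.13 and -0.23 to 0.06). All 95% intervals of the 10 members lay between -0.49, the lower bound of *Igf2* in scramble cells, and 0.29, the upper bound of *Igf2r* in scramble cells, and none reached a 2-fold change.

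In scramble cells, the log2 fold change upon ligand was -0.24 for *Igf2* (SE 0.115, adjusted p = 0.309 by edgeR), 0.15 for *Igf2r* (SE 0.0627, adjusted p = 0.222 by edgeR) and -0.14 for *Igfbp7* (SE 0.0632, adjusted p = 0.270 by edgeR), none of which was called. These values moved with single libraries and, for *Igf2* and *Igf2r*, their adjusted p with the low-count filter. With all libraries and no filter, *Igf2* had -0.23 and *Igf2r* 0.16, with adjusted p of 6.66e-05 and 0.0157 by edgeR. The log2 fold changes themselves thus hardly moved. That setting also raised the calls over all genes, from 30 to 121 in this comparison and from 2 to 218 for the interaction. Without scramble -PDGF-AA replicate 3 they were -0.35, 0.23 and -0.22 with adjusted p of 0.0366, 0.0327 and 0.00494 by edgeR, and without scramble +PDGF-AA replicate 2 that of *Igf2* was -0.39 with an adjusted p of 0.0430. Without the 3 libraries of lowest mapping rate, the values of *Igf2*, *Igf2r* and *Igfbp7* were -0.10, 0.05 and 0.03. These rest on replicate 3 as the only scramble -PDGF-AA sample left, the one whose removal moved them the other way.

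The interaction, the difference between the knockdown effects with and without ligand, was called for 0 of the 10 members, against 0.0133% of all genes, with 0 members and 833 of all genes at an unadjusted p under 0.05. By DESeq2 the count of members was also 0. It was 0.02 for *Igfbp2* (95% interval -0.10 to 0.14), -0.08 for *Igfbp5* (-0.28 to 0.12) and 0.18 for *Igf2* (-0.17 to 0.53). The member nearest to the threshold was *Igfbp7* at 0.17 (SE 0.0895, adjusted p = 0.874 by edgeR). It had -0.00059 without the 3 libraries of lowest mapping rate, where 1 scramble -PDGF-AA sample is left.

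**Figure D4:**
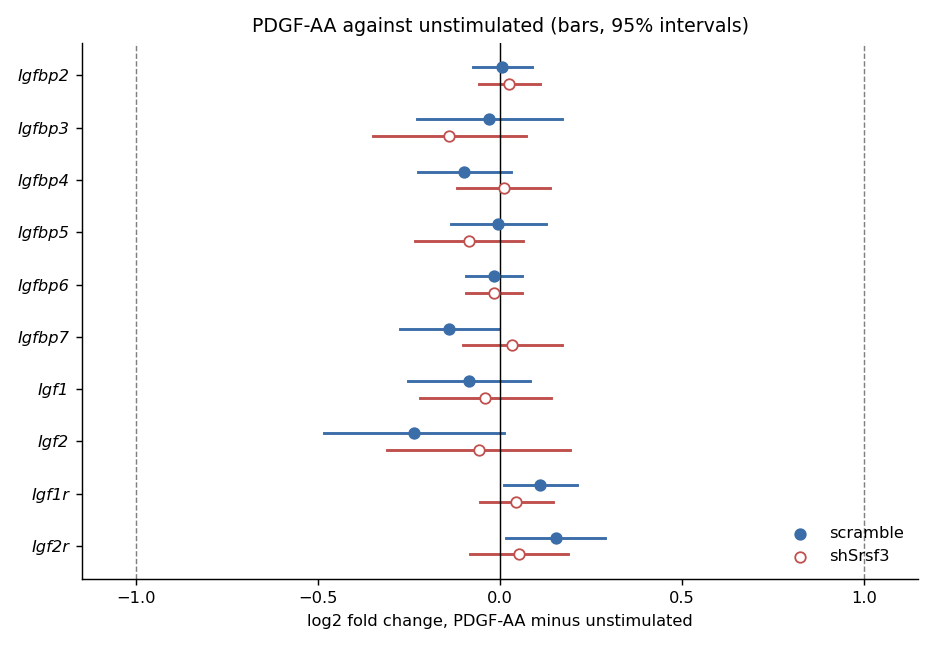
Log2 fold change upon PDGF-AA (x axis, PDGF-AA minus unstimulated) of each member in scramble (blue, filled) and shSrsf3 cells (red, open), with 95% intervals as bars and dashed lines at a 2-fold change. Points and intervals lie near 0, the widest lower bound being -0.49 for *Igf2* in scramble cells.

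Other genes of the pathway were examined in 6 lists with 44 genes, of which 35 were tested. Without ligand, 3 of the 35 (*Adam12*, *Irs4* and *Igf2os*) were lower by at least 2-fold and 0 were higher, and by adjusted p alone 17 were lower and 8 higher, beside 2.76% and 2.99% of all genes by 2-fold and 23.7% and 22.2% by adjusted p. With ligand, 2 (*Socs3* and *Igf2os*) were lower by at least 2-fold and 0 higher, and by adjusted p alone 16 were lower and 4 higher, beside 2.57%, 2.85%, 20.7% and 20.3% of all genes, respectively. The median log2 fold changes over the 35 genes were -0.16 and -0.19, against -0.02 and -0.01 over all genes. The all-gene shares by adjusted p apply to each list below. Of the members of the insulin family list, only *Insr*, the insulin receptor, passed the filter, with 51.6 ± 2.50 CPM (scramble) and 46.2 ± 1.73 CPM (shSrsf3) in the absence of ligand. Its log2 fold changes were -0.16 without and -0.21 with ligand (adjusted p = 0.0217 and 0.00689 by edgeR). The insulin genes *Ins1* and *Ins2* had a count of 0 in all samples, and *Igfbp1*, *Igfals*, *Igfbpl1* and *Insrr* had at most 4 counts in any sample.

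Among 8 genes for IGFBP cleavage and its inhibitors, 4 were lower and 2 higher by adjusted p without ligand, and 2 were lower and 1 higher with ligand, of which the 2 higher without and the 2 lower with ligand lie near the shares of all genes (22.2% and 20.7%). *Adam12*, a metalloprotease that can cleave IGFBP-3 and IGFBP-5, measured 17.95, 17.7 and 17.9 CPM in scramble and 8.09, 7.02 and 7.65 CPM in shSrsf3 samples without ligand. It was lower in shSrsf3 cells by log2 fold changes of -1.23 (SE 0.0738, adjusted p = 2.11e-08 by edgeR) and, with ligand, of -0.99 (SE 0.0759, adjusted p = 2.53e-07 by edgeR), just short of 2-fold. The 2 genes of this list with the highest level per length, the serine protease *Htra1* and the lysosomal protease *Ctsd*, had 300.1 and 492 CPM (scramble) and 283 and 479 CPM (shSrsf3) in the absence of ligand, with adjusted p of 0.0919 and 0.382 by edgeR.

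Of the 11 receptor adaptor and inhibitor genes tested, 8 were lower in shSrsf3 cells by adjusted p in each ligand condition, against 23.7% and 20.7% of all genes without and with ligand, and 2 were higher without and 0 with ligand. *Socs3*, an inhibitor of cytokine and insulin receptor signaling, measured 25.95, 23.2 and 23.3 CPM in scramble and 12.4, 11.4 and 12.8 CPM in shSrsf3 samples without ligand (log2 fold change -0.99, SE 0.0603) and was lower by 1.02 on the log2 scale with ligand (fold change 2.03). *Irs4*, an insulin receptor substrate, stayed below 0.5 CPM in every sample, and its log2 fold changes of -1.71 (SE 0.612, adjusted p = 0.0345 by edgeR) and -1.56 (SE 0.614, adjusted p = 0.0577 by edgeR) rest on few counts. The 2 highest genes per length were *Grb10*, an imprinted adaptor that restrains IGF receptor signaling, and *Shc1*, an adaptor to the Ras pathway. *Grb10* measured 915 ± 9.70 and 969 ± 4.86 CPM (log2 fold change 0.08, adjusted p = 0.0480 by edgeR) and *Shc1* 107 ± 5.67 and 117 ± 2.94 CPM (0.13, adjusted p = 0.0233 by edgeR) in the absence of ligand (scramble first, SD, n = 3).

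This list also held the genes of the pathway that differed upon ligand, 3 in scramble and 2 in shSrsf3 cells by adjusted p alone (4.04% and 0.565% of all genes), which are named here after their values were seen. *Irs2*, a main substrate of the IGF-I and insulin receptors, measured 98.8, 91.2 and 89.9 CPM in scramble -PDGF-AA and 73.7, 74.3 and 71.1 CPM in scramble +PDGF-AA samples. In shSrsf3 cells it measured 61.3, 60.4 and 65.4 CPM without and 53.8, 47.7 and 46.0 CPM with ligand. It fell in both lines without overlap, by log2 fold changes of -0.35 (SE 0.0572, adjusted p = 0.00349 by edgeR) and -0.34 (SE 0.0586, adjusted p = 0.0152 by edgeR). *Irs1*, the related substrate, fell from 113.7 ± 10.9 to 90.7 ± 0.650 CPM in scramble cells (-0.33, adjusted p = 0.0136 by edgeR) and from 96.9 ± 5.29 to 75.7 ± 5.31 CPM in shSrsf3 cells (-0.36, adjusted p = 0.0288 by edgeR). *Gab1*, a docking protein, fell in scramble cells by a log2 fold change of -0.17 (adjusted p = 0.0438 by edgeR). All were under the fold change minimum.

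Of the 3 Igf2 mRNA-binding protein genes, *Igf2bp3* was higher in shSrsf3 cells, rising from 42.9 ± 3.38 CPM (scramble) to 59.3 ± 1.73 CPM (shSrsf3) in the absence of ligand (SD, n = 3). Its log2 fold changes were 0.47 without and 0.49 with ligand (SE 0.0508 and 0.0510, adjusted p = 6.64e-06 and 4.73e-06 by edgeR). *Igf2bp2* changed by -0.13 (adjusted p = 0.0770 by edgeR) and -0.03 (adjusted p = 0.710 by edgeR). Among the noncoding RNAs at the imprinted loci, *Igf2os*, which lies antisense to *Igf2*, had 1.73 ± 0.0948 CPM (scramble) and 0.700 ± 0.118 CPM (shSrsf3) in the absence of ligand (SD, n = 3). It was lower by log2 fold changes of -1.33 (SE 0.205, adjusted p = 1.46e-04 by edgeR) and -1.09 (SE 0.218, adjusted p = 0.00119 by edgeR). The libraries are stranded, but whether the counting used the strand is not given in the sources used here, so that its reads and those of *Igf2* may not be fully separated. *H19*, the maternally expressed RNA next to *Igf2*, had at most 90.7 counts in any sample and log2 fold changes of -0.91 and -0.76 that were not called (adjusted p = 0.174 and 0.242 by edgeR). *Airn*, the RNA antisense to *Igf2r*, stayed between 1.02 and 1.72 CPM in all samples.

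The last list held 12 genes, 10 of them tested, for proteins outside the IGFBP family that share its N-terminal domain. By adjusted p, 3 were lower and 3 higher without ligand, and 4 were lower and 2 higher with ligand, none by 2-fold. The shares of all genes were 23.7% and 22.2% without and 20.7% and 20.3% with ligand. *Ccn2*, a matrix-associated growth regulator and one of the 2 highest genes of the list per length, had 3420 ± 566 CPM (scramble) and 4159 ± 199.7 CPM (shSrsf3) in the absence of ligand. Its log2 fold changes were 0.28 without and 0.08 with ligand (adjusted p = 0.0184 and 0.484 by edgeR). Its relative *Ccn1* had log2 fold changes of 0.01 (adjusted p = 0.856 by edgeR) and -0.20 (adjusted p = 0.0151 by edgeR).

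**Figure D5:**
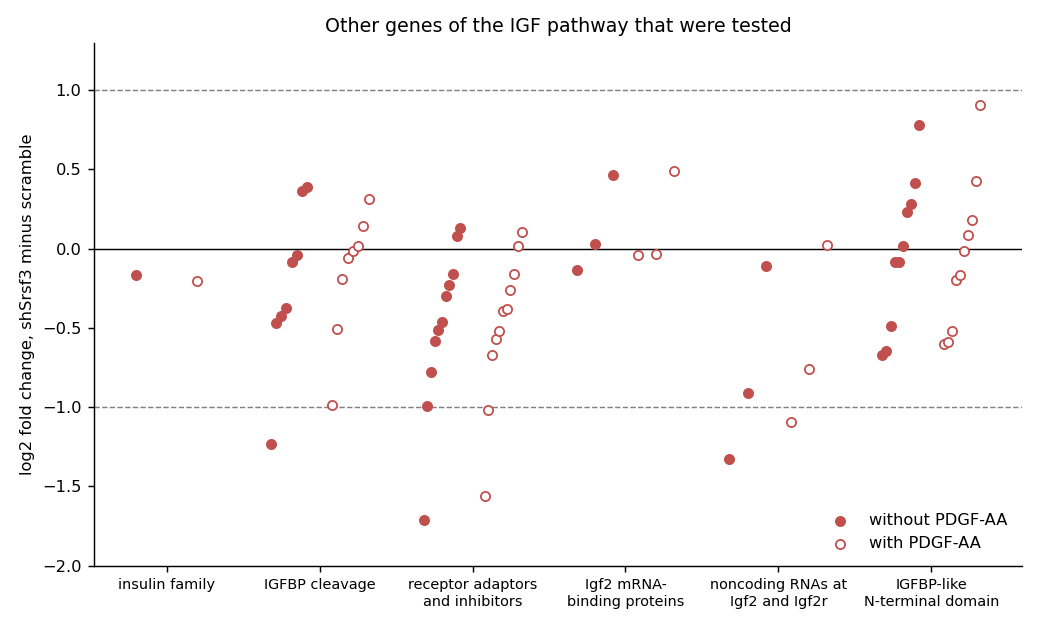
Log2 fold change (y axis, shSrsf3 minus scramble) of the 35 tested genes of the 6 lists (x axis) without PDGF-AA (filled) and with PDGF-AA (open), 1 point per gene and condition, *Htra1* counted in 2 lists, and dashed lines at a 2-fold change. Points beyond the lower dashed line are *Adam12*, *Irs4*, *Igf2os* and, with ligand, *Socs3*.

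The profile of *Igfbp5* over the 12 samples was compared with those of 12262 genes with a mean count of at least 50, by the root mean square difference of log2 CPM values centered on each gene's own mean. The 5 genes nearest to it were *Sema5a* (0.147), *Plxnc1* (0.152), *Ism1* (0.178), *Enpp2* (0.196) and *Kif26b* (0.202), against a median of 1.34 over all genes. *Igfbp5* differed mainly between the lines, which is the difference the family was chosen on. Genes lower in shSrsf3 cells by a similar amount therefore lie near it by construction. *Sema5a* encodes a transmembrane semaphorin, *Plxnc1* a semaphorin receptor, *Enpp2* the enzyme that makes lysophosphatidic acid and *Kif26b* a kinesin family protein. As a description, these genes had log2 fold changes between scramble and shSrsf3 samples from -2.93 (*Kif26b*) to -2.30 (*Plxnc1*) without ligand and from -3.14 (*Kif26b*) to -2.40 (*Enpp2*) with ligand.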

How the data were processed

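The authors trimmed reads with BBDuk, quantified transcripts with Salmon (1.4.0, per the submitters' processing notes) against GENCODE M26 on GRCm39, summed them per gene with tximport and deposited expected counts, which are not scaled to library size. How tximport scaled counts is not given in the sources used here. Here, expected counts were rounded, filtered (filterByExpr, minimum count 10) and normalized by TMM. One edgeR 4.0.16 quasi-likelihood model with a mean per group was fitted to all 12 samples and 15037 genes, with Benjamini-Hochberg adjustment over all of them. A call needed an adjusted p up to 0.05 and, except for the interaction, a log2 fold change of 1 or more in size. Alternatives were DESeq2 1.42.0, RLE size factors, other filters, thinning to equal depth, a replicate block, and samples left out. The methods call the replicates independent and biological. Positions and lengths come from GENCODE M39 on GRCm39. The members, the gene lists and the tests were chosen with earlier results of these data known. Named genes by rule are the members, list genes called in a comparison, the 2 highest per length in each list, the 5 nearest in profile to *Igfbp5*, and *Srsf3*, while *Irs1*, *Irs2*, *Gab1* and the neighbors of *Igfbp2* and *Igf2* were named after their values were seen. Scripts were tested on simulated data with R 4.3.3 and Python 3.11.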

Additional observations from a re-analysis of the deposited data

How the results depend on the processing

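Among the 990 log2 fold changes of the members under the alternatives (the fold change minimum and the transcript length do not alter them, and fitting only the groups compared gives no interaction), no value called by the 2-fold rule lost that call or changed sign, and 39 changes of sign occurred among values that were not called. The count of members called stayed at 3 in both knockdown comparisons and at 0 upon ligand and in the interaction under every alternative except the removal of the fold change minimum, which gave 9 and 9. These knockdown counts include *Igfbp5*, on which the family was selected. Without *Igfbp5*, they were 2 and 2, and 8 and 8 without the fold change minimum. Share values of *Igfbp2* and *Igfbp5* moved with the longest annotated transcript as length: *Igfbp2* made up 40.0% and 41.4% in scramble cells and 7.22% and 7.34% in shSrsf3 cells without and with ligand, and *Igfbp5* 1.86% and 1.91% in scramble cells. With that length, *Igfbp4* rather than *Igfbp2* had the largest mean share in scramble cells without ligand. With the 9 libraries of higher mapping rate, where scramble -PDGF-AA retains 1 sample assumed to vary like the other groups, the share of *Igfbp2* in that group was 44.3%. Same-numbered samples correlated between -0.142 and 0.201 in their deviations from group means, over 0.1 in 2 of 18 pairs. Both of these pairs were between scramble -PDGF-AA and scramble +PDGF-AA. With 3 samples per group, these values cannot decide whether same-numbered samples were handled together. With the replicate block, the log2 fold change of *Igfbp2* was -3.31 and -3.29, that of *Igf2* -1.92 and -1.74, and the member counts, with *Igfbp5* included, were unchanged at 3, 3, 0, 0 and 0. Over all genes, the 864 and 815 calls between the lines became 487 and 479 with at least 1 CPM in 3 samples and 6899 and 6169 without the fold change minimum. The 30 calls upon ligand in scramble cells became 19 with that filter, 121 without a filter, 608 without the fold change minimum, and 78 or 18 when replicate 3 of scramble -PDGF-AA or of scramble +PDGF-AA was left out. The 6 calls in shSrsf3 cells became 10 with DESeq2, 65 without a filter, 85 without the fold change minimum and 3 without shSrsf3 -PDGF-AA replicate 1. The 2 interaction calls became 24 with DESeq2, 218 without a filter, 16 with 9 libraries, 1 with the replicate block or thinning, and 1 to 6 with a sample left out. The cause of these changes was not tested. Depth limits the lowest list genes, such as *Irs4* with at most 0.482 CPM in any sample.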

Other observations

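The genes around the most affected members were listed after the values of the members had been seen. Within 500 kb of *Igfbp2* and *Igfbp5*, 36 other genes were annotated and 3 were tested, and 0 were called by the 2-fold rule in either ligand condition. Over all genes, 2.76% were lower and 2.99% higher by this rule without ligand, and 2.57% and 2.85% with ligand. A count of 0 among 3 genes lies near these shares, which also apply to the genes near *Igf2* below. *Xrcc5*, which encodes a DNA end-binding protein, had a log2 fold change of 0.03 in shSrsf3 relative to scramble cells in both ligand conditions (adjusted p = 0.612 and 0.674 by edgeR), and *Smarcal1*, a DNA annealing helicase gene, of -0.13 and -0.16 (adjusted p = 0.163 and 0.106 by edgeR). *Rpl37a*, a ribosomal protein gene, had -0.12 and -0.25 (adjusted p = 0.0564 and 0.00112 by edgeR). Within 500 kb of *Igf2*, 14 of 63 annotated genes were tested, and *Igf2os* was the one called by the 2-fold rule. By adjusted p alone, 2 were lower and 2 higher without ligand, and 1 was lower and 3 higher with ligand, against 23.7% and 22.2% and against 20.7% and 20.3% of all genes. *Lsp1*, an F-actin-binding protein gene 156 kb from *Igf2*, was higher in shSrsf3 samples by 0.42 in both conditions (SE 0.0507 and 0.0510, edgeR), at 56.3 and 75.3 CPM in scramble and shSrsf3 samples without ligand.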
